A study of Homo sapiens with 6 samples.

Results

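This report describes 10 genes that control how fast actin filaments are taken apart, as measured by RNA sequencing of SH-SY5Y cells given the orphan nuclear receptor ERRγ. They are the LIM kinases *LIMK1* and *LIMK2*, the actin depolymerizing proteins *CFL1*, *CFL2* and *DSTN*, the slingshot phosphatases *SSH1*, *SSH2* and *SSH3*, and the coronins *CORO1B* and *CORO1C*. The genes were chosen by name as parts of the cofilin pathway, with earlier results of these data known. They were found by matching the Ensembl identifiers of the count table to gene symbols, which gave 10 of 67060 genes in the table. All 10 passed the filter on low counts. The study had picked *LIMK1* for follow-up partly from these same libraries, so its direction here is not independent evidence. In mouse midbrain, the paper found *Limk1* lower with *Esrrg* knockdown. It did not name *Limk1* among the genes raised there by *Esrrg* overexpression.

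Cofilins bind actin filaments, sever them and speed the loss of their subunits. LIM kinases phosphorylate cofilin on a serine near its start, which keeps it from binding actin, and slingshot phosphatases remove that phosphate. Coronin 1B binds both slingshot and the branch-forming ARP2/3 complex, and in neurons this cycle is known for its part in growth cones and dendritic spines. RNA sequencing measures the transcripts of these genes, not the phosphorylation of cofilin.

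SH-SY5Y is a human neuroblastoma line with catecholaminergic features. The cells were infected for 24 h with 0.5 µl of an adenovirus in which the CMV promoter drives the mouse *Esrrg* coding sequence joined to a 3xFlag tag (Ad CMV 3xFlag-*Esrrg*, 3 libraries, replicates 2, 3 and 4) or with the control virus Ad CMV GFP (3 libraries, replicates 1, 3 and 4). Both groups thus carried an adenovirus and a transgene that is expressed from a viral promoter. The labels do not say whether the replicates were separate cultures, so p-values measure only the spread between these samples. In such bulk samples, fewer cells of a type and less RNA per cell cannot be told apart.

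Reads counted on genes numbered 24969759 to 29700980 per Ad CMV GFP library and 26513620 to 40859666 per Ad CMV 3xFlag-*Esrrg* library. *ESRRG* rose by a log2 fold change of 3.02 ± 0.14 (SE, adjusted p = 6.3e-07, edgeR's quasi-likelihood test), and reads of the mouse transgene on the human gene cannot be told apart from its own transcripts. Reads assigned to no annotated gene (unassigned reads) made up 51.3% to 52.2% of all reads with Ad CMV GFP, and 46.6%, 31.6% and 29.5% in Ad CMV 3xFlag-*Esrrg* replicates 2, 3 and 4. Replicate 2 stood apart from the other two of its group, and values without it are given where it decides a call. Of 9 adrenergic markers, *PHOX2A* rose, *DBH* and *STMN2* fell and *TH*, the defining enzyme of catecholamine synthesis, had 0 counts in each library. The summed level of 9 mesenchymal-type markers was 7868 to 8078 normalized counts per 1000000 counted reads (CPM) with Ad CMV GFP and 7994 to 8884 with Ad CMV 3xFlag-*Esrrg*, while that of 4 Schwann cell markers was 6.16 to 6.95 and 4.28 to 5.24. *COL3A1*, a fibrillar collagen on the mesenchymal list, stood at 2602 ± 42.6 CPM with Ad CMV GFP (SD, n = 3).

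The study asked which genes respond to ERRγ in these cells. Calls required an adjusted p (Benjamini-Hochberg, over all 24500 genes tested) below 0.05 together with a change of 1.5-fold or more. Of the 10 genes, 4 passed as higher with Ad CMV 3xFlag-*Esrrg* (*LIMK1*, *CFL1*, *CORO1B* and *CORO1C*) and 1 was called lower (*SSH2*). Across all genes tested, 17.3% were called higher and 16.8% were called lower. Among protein-coding genes, the class to which all 10 belong, these shares were 25.9% and 12.4%. Calls in either direction made up 34.1% of all genes and 38.3% of protein-coding genes. The adjusted p alone was below 0.05 for 7 of the 10 genes, against 47.8% of all genes and 60.0% of protein-coding genes. Libraries of one group lay wholly apart from those of the other for 8 of the 10 (58.1% of all genes, 70.3% of protein-coding genes), with the receptor libraries above for 6 (27.8% and 41.9%) and below for 2 (30.3% and 28.4%). The median log2 fold change was 0.48 for the 10 genes, -0.10 for all genes tested and 0.12 for protein-coding genes. Because the 10 genes were chosen with earlier results of these data known, these comparisons only describe them.

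The stretches before a RefSeq start are shown for *LIMK1* and *SSH2*, the kinase and the phosphatase that changed in opposite directions, and for the coronin *CORO1B*, each at the outermost start that RefSeq gives. They are RefSeq sequences on GRCh38.p14, read 5′ to 3′ along the strand of the gene and cut where annotated exons begin. Those of *LIMK1* and *CORO1B* lie within the gene spans of GENCODE given below, which begin further upstream. Capitals mark GC boxes (GGGCGG, or CCGCCC for the other strand), the letters bound by SP1-type factors.
*LIMK1*, chr7:74083554-74083803, plus strand: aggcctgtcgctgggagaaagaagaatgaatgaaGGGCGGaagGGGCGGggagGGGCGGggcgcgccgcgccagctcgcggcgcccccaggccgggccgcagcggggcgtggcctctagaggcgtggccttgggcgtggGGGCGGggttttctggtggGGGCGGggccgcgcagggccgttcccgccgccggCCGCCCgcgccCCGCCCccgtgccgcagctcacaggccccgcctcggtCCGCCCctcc
*SSH2*, chr17:29930277-29930478, minus strand: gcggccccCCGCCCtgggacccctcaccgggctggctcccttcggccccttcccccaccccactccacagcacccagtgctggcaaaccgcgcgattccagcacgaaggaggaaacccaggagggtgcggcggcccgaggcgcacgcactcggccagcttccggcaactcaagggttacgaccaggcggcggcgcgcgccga
*CORO1B*, chr11:67443513-67443726, minus strand: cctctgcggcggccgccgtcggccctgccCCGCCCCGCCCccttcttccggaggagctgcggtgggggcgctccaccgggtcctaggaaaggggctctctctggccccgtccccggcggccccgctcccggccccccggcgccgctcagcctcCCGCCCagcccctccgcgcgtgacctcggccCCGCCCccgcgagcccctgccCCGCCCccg

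The stretch printed for *LIMK1* held 8 GC boxes, that for *CORO1B* held 5 and that for *SSH2* held 1. *LIMK1* and *SSH2* each have another RefSeq start, and the 250 bases before it held 0 and 3 GC boxes, so the order of these genes depends on the start. Over windows from 250 bases before to 50 bases after each RefSeq start, 13 of the 17 windows of the 10 genes held a GC box on either strand, against 44.954% of 35116 windows of all genes. The GC box was chosen after these promoters had been seen. The windows of all genes were not matched for expression or gene type, so this comparison only describes the 10 genes. The letters TNAAGGTCA of the ERR response element were in 0 of the 17 windows and in 0.951% of all windows. Their core AAGGTCA, which lies within the longer motif, was in 0 of the 17 and in 3.921% of all. These letters were searched in these windows alone, and nothing follows from their absence about ERRγ.

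Of the LIM kinases, *LIMK1* (ENSG00000106683, chr7:74082933-74122525, plus strand) rose. Its level was 81.3, 91.8 and 85.0 CPM in Ad CMV GFP replicates 1, 3 and 4, and 142, 175 and 192 CPM in Ad CMV 3xFlag-*Esrrg* replicates 2, 3 and 4. The lowest library with the receptor was well above the highest control. The means were 86.0 ± 5.30 and 169 ± 25.3 CPM (SD, n = 3 each), a 1.97-fold rise with a log2 fold change of 0.98 ± 0.12 (SE, adjusted p = 1.5e-04, edgeR's quasi-likelihood test). *LIMK1* was called under all 15 other fits at the same cutoff, with log2 fold changes from 0.60 to 1.20, and lay close to the 1.5-fold cutoff at 0.60 both after correction for GC content and length and with the unassigned share as a covariate.

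*LIMK2* (ENSG00000182541, chr22:31212239-31280080, plus strand), the second LIM kinase, stood at 28.5, 30.7 and 28.4 CPM with Ad CMV GFP and at 36.1, 43.6 and 45.1 CPM with Ad CMV 3xFlag-*Esrrg*. These groups did not overlap either. Its log2 fold change of 0.51 ± 0.11 (SE, adjusted p = 0.0029, edgeR's quasi-likelihood test) was under the 1.5-fold cutoff, so it was not called. It was called in 4 of the 15 other fits, at 0.71 without Ad CMV 3xFlag-*Esrrg* replicate 2. The others were at 0.59 with DESeq2, with RLE factors and with the replicate number as a block. That block fit rests on replicate numbers 3 and 4 alone.

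**Figure D1:**
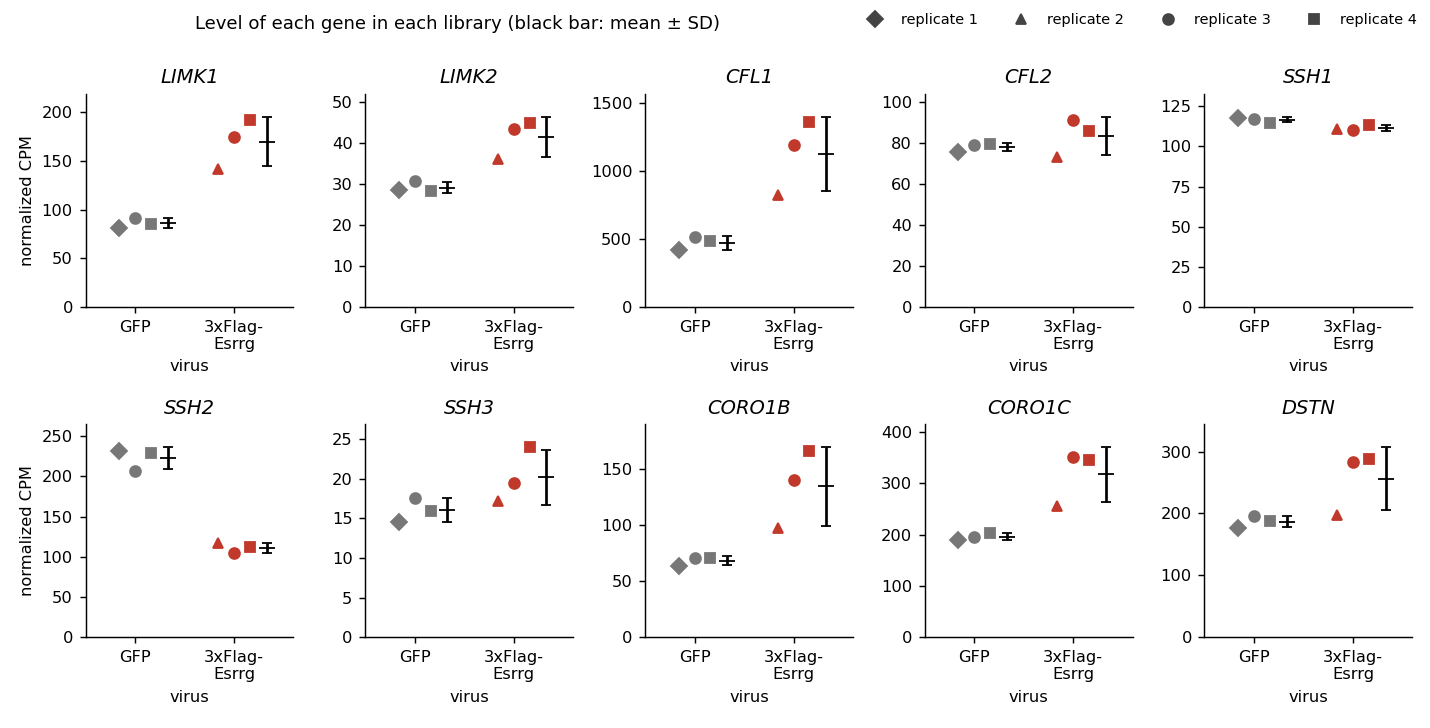
Normalized CPM of the 10 genes in each of the 6 libraries on linear axes that start at 0, with the marker shape giving the replicate number, grey for Ad CMV GFP, red for Ad CMV 3xFlag-*Esrrg* and a black bar for the mean ± SD of 3 libraries. *SSH2* lies at 104 to 117 CPM with the receptor and 207 to 232 without it, while *CFL1*, *CORO1B* and *LIMK1* lie higher in every red point than in any grey one.

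Among the actin depolymerizing proteins, *CFL1* (ENSG00000172757, chr11:65823022-65862026, minus strand), the cofilin of non-muscle cells, changed most. It stood at 419, 517 and 488 CPM with Ad CMV GFP and at 828, 1192 and 1361 CPM with Ad CMV 3xFlag-*Esrrg*. Replicate 2 was the lowest of the receptor libraries and was still far above each control. The means of 475 ± 50.5 and 1127 ± 272 CPM (SD, n = 3 each) differed 2.37-fold, with a log2 fold change of 1.25 ± 0.18 (SE, adjusted p = 3.0e-04, edgeR's quasi-likelihood test). *CFL1* was called under all 15 other fits (0.60 to 1.54), with the lowest value when the unassigned share was a covariate. On the opposite strand, exons of *MUS81* and *SNX32* cover 19.03% of its exon bases, and *MUS81* rose too (log2 fold change 0.72). *MUS81* held 753 to 1703 reads per library and *SNX32* held 135 to 201, against 11814 to 46376 for *CFL1*. The libraries kept strand, but the strand setting of the counting is not given in the sources used here.

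*CFL2* (ENSG00000165410, chr14:34709113-34714823, minus strand), the cofilin that prevails in muscle, stood at 75.8, 79.0 and 79.5 CPM with Ad CMV GFP and at 72.9, 91.0 and 86.0 CPM with Ad CMV 3xFlag-*Esrrg*. The groups overlapped. Its log2 fold change of 0.09 ± 0.10 (SE, adjusted p = 0.47, edgeR's quasi-likelihood test) was below the spread between replicates. *CFL2* was called in 0 of the 15 other fits, but its value depended on the fit. It was -0.23 with library size alone and 0.29 without Ad CMV 3xFlag-*Esrrg* replicate 2. After the GC and length correction it was 0.36, and 0.47 with the replicate number as a block as well.

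*DSTN* (ENSG00000125868, chr20:17570075-17609919, plus strand) encodes destrin, which severs filaments and binds actin monomers. It stood at 177, 195 and 188 CPM with Ad CMV GFP and at 197, 283 and 288 CPM with Ad CMV 3xFlag-*Esrrg*. Replicate 2 lay just above the highest control, and the other 2 libraries lay well apart from it. The log2 fold change was 0.46 ± 0.14 (SE, adjusted p = 0.022, edgeR's quasi-likelihood test), under the fold cutoff. It was called without Ad CMV 3xFlag-*Esrrg* replicate 2 (0.72) and after the GC and length correction (0.63), and its sign turned with the unassigned share as a covariate (-0.08).

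Of the slingshot phosphatases, *SSH2* (ENSG00000141298, chr17:29625938-29930276, minus strand) fell. It stood at 232, 207 and 229 CPM with Ad CMV GFP and at 117, 104 and 112 CPM with Ad CMV 3xFlag-*Esrrg*. Here replicate 2 lay with the other receptor libraries. The means were 223 ± 13.7 and 111 ± 6.36 CPM (SD, n = 3 each), a log2 fold change of -1.002 ± 0.10 (SE, adjusted p = 4.7e-05, edgeR's quasi-likelihood test). *SSH2* was called lower under all 15 other fits (-1.32 to -0.89).

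*SSH1* (ENSG00000084112, chr12:108778191-108857590, minus strand), the founding slingshot, held nearly the same level throughout, with 118, 117 and 115 CPM with Ad CMV GFP and 111, 110 and 114 CPM with Ad CMV 3xFlag-*Esrrg*. The groups did not overlap, but the log2 fold change of -0.06 ± 0.08 (SE, adjusted p = 0.55, edgeR's quasi-likelihood test) changed sign with the scaling. It was -0.38 with library size alone and 0.014 with RLE factors, and *SSH1* was called in 0 of the 15 other fits. *SSH3* (ENSG00000172830, chr11:67303478-67312607, plus strand), which lacks the actin binding of its relatives, stood at 14.5, 17.5 and 15.98 CPM with Ad CMV GFP and at 17.2, 19.5 and 24.0 CPM with Ad CMV 3xFlag-*Esrrg*. The groups overlapped, and the log2 fold change of 0.34 ± 0.14 (SE, adjusted p = 0.063, edgeR's quasi-likelihood test) did not pass.

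Both coronins, which bind filaments and the ARP2/3 complex, were called higher. *CORO1B* (ENSG00000172725, chr11:67435510-67443821, minus strand) stood at 63.7, 70.4 and 70.3 CPM with Ad CMV GFP and at 97.0, 140 and 166 CPM with Ad CMV 3xFlag-*Esrrg*. Its receptor libraries were spread widely and were all above the controls. The means of 68.1 ± 3.87 and 134 ± 35.0 CPM (SD, n = 3 each) gave a log2 fold change of 0.98 ± 0.17 (SE, adjusted p = 8.6e-04, edgeR's quasi-likelihood test). After correction for GC content and length (0.48) the call was lost, as it was with the unassigned share as a covariate (0.29). *CORO1B* had the highest GC content of the 10 genes, at 64.3% of its exon bases.

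*CORO1C* (ENSG00000110880, chr12:108645109-108731526, minus strand) stood at 189, 196 and 203 CPM with Ad CMV GFP and at 256, 350 and 345 CPM with Ad CMV 3xFlag-*Esrrg*. The groups were apart, with replicate 2 again the lowest with the receptor. The means of 196 ± 6.68 and 317 ± 53.1 CPM (SD, n = 3 each) gave a log2 fold change of 0.70 ± 0.13 (SE, adjusted p = 0.0014, edgeR's quasi-likelihood test). The call was lost when counts were scaled by library size alone (0.36), with the unassigned share as a covariate (0.26) and when tested against a 1.5-fold change in place of none. It held after the GC and length correction (0.74), and its exons are 45.5% GC.

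**Figure D2:**
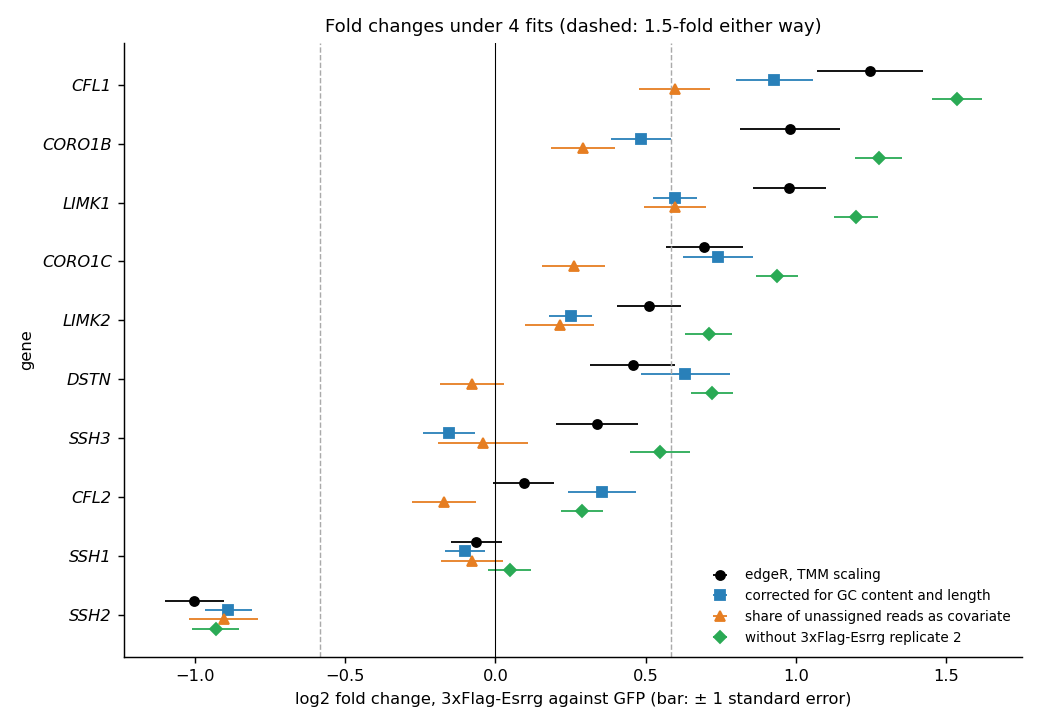
Log2 fold change of each gene (Ad CMV 3xFlag-*Esrrg* against Ad CMV GFP) with a bar of 1 standard error under 4 fits, and dashed lines at 1.5-fold in either direction. *SSH2* lies left of the lower line under each of the 4, *CFL1* and *LIMK1* lie right of the upper line, and *CORO1B* moves from 0.98 to 0.48 and 0.29 under the 2 corrections.

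Compared per kilobase of annotated exon, *CFL1* was the most abundant of the 10 genes with Ad CMV GFP, at 81.0 ± 8.60 CPM per kilobase (SD, n = 3), followed by *DSTN* (51.3 ± 2.53), *CORO1C* (30.3 ± 1.03) and *SSH2* (17.5 ± 1.08). *CFL2* (15.8 ± 0.398) came next, and *CORO1B* (12.8 ± 0.727) and *LIMK1* (12.2 ± 0.754) lay within their spread of each other. *SSH1* (8.02 ± 0.113) lay above *LIMK2* (4.73 ± 0.216) and *SSH3* (4.43 ± 0.418), which overlapped within their spread. With Ad CMV 3xFlag-*Esrrg*, *CFL1* reached 192 ± 46.4 CPM per kilobase, *LIMK1* (24.1 ± 3.59) and *CORO1B* (25.2 ± 6.57) lay above *SSH2* (8.75 ± 0.501), and *SSH2* came to lie near *SSH1* (7.67 ± 0.129). The order depends on the length used. Per kilobase of the canonical transcript, the control levels were 381 ± 40.5 for *CFL1*, 54.8 ± 2.71 for *DSTN*, 51.4 ± 1.75 for *CORO1C*, 25.6 ± 1.58 for *LIMK1*, 23.5 ± 1.44 for *SSH2*, 18.1 ± 0.457 for *CFL2* and 15.4 ± 0.878 for *CORO1B*. On that scale *LIMK1* was already level with *SSH2* in the controls and above *CORO1B*.

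Ratios of counts within a library need no scaling between libraries. For 3 libraries against 3, the exact permutation test (two-sided) cannot give a p below 0.1. All 6 ratios computed reached this smallest exact p of 0.1, before and after Benjamini-Hochberg adjustment over the 6, with no overlap between groups. The ratio of *LIMK1* to *LIMK2* was 2.85, 2.98 and 2.996 with Ad CMV GFP and 3.93, 4.01 and 4.25 with Ad CMV 3xFlag-*Esrrg*, a difference of 0.47 in log2. The kinase pair thus tilted toward *LIMK1* in each library with the receptor.

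The ratio of *CFL2* to *CFL1* was 0.181, 0.153 and 0.163 with Ad CMV GFP and 0.0881, 0.0763 and 0.0632 with Ad CMV 3xFlag-*Esrrg*, a log2 difference of -1.13. The ratio of *DSTN* to *CFL1* was 0.423, 0.378 and 0.384 against 0.238, 0.237 and 0.212, a log2 difference of -0.79. Per kilobase of annotated exon, *CFL1* made up 54.6% ± 1.64 of the transcripts of the 3 genes with Ad CMV GFP and 68.6% ± 1.80 with Ad CMV 3xFlag-*Esrrg* (SD, n = 3 each). With the shorter canonical transcript as the length, these shares were 83.9% ± 0.905 and 90.4% ± 0.724. After the GC and length correction the 2 log2 differences were -0.58 and -0.31.

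The ratio of *SSH3* to *SSH1* plus *SSH2* was 0.0415, 0.0541 and 0.0465 with Ad CMV GFP and 0.0754, 0.0908 and 0.106 with Ad CMV 3xFlag-*Esrrg*, a log2 difference of 0.93 that fell to 0.41 after the GC and length correction. *SSH2* made up 58.4% ± 2.31 of slingshot transcripts per kilobase of annotated exon with Ad CMV GFP and 39.8% ± 2.47 with Ad CMV 3xFlag-*Esrrg* (SD, n = 3 each). The ratio of *CORO1B* to *CORO1C* was 0.337, 0.360 and 0.347 against 0.379, 0.399 and 0.481, a log2 difference of 0.26. That direction reversed after the GC and length correction, to -0.25.

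The LIM kinases were set against the slingshot phosphatases as *LIMK1* plus *LIMK2* over *SSH1*, *SSH2* and *SSH3*, all per kilobase of annotated exon. No other kinase or phosphatase of cofilin entered this ratio. The ratio was 0.532, 0.617 and 0.549 with Ad CMV GFP and 1.20, 1.51 and 1.48 with Ad CMV 3xFlag-*Esrrg*. Slingshot transcripts exceeded those of the LIM kinases in each control library, and the order was the opposite in each library with the receptor. The log2 ratio went from -0.82 ± 0.11 to 0.48 ± 0.18 (SD, n = 3 each), a difference of 1.30 that was 1.01 after the GC and length correction. With canonical transcript lengths the ratio was 0.826, 0.963 and 0.855 with Ad CMV GFP, closer to 1, and 1.93, 2.42 and 2.38 with Ad CMV 3xFlag-*Esrrg*, a log2 difference of 1.34.

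**Figure D3:**
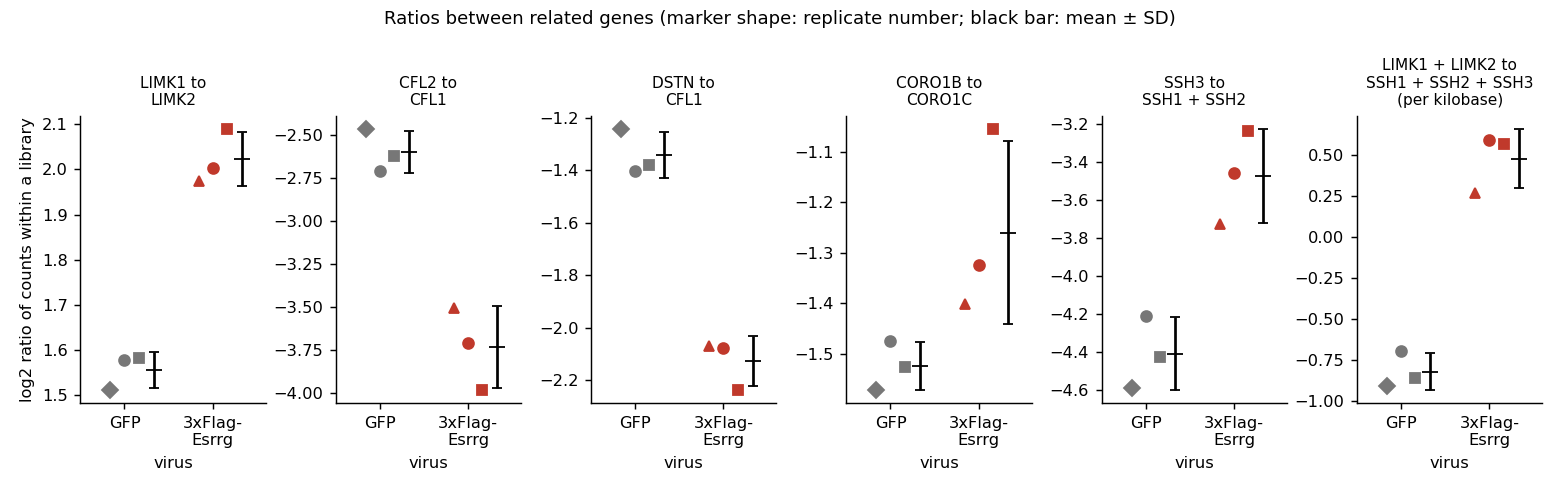
Log2 of 6 ratios of counts within each library, 1 panel per ratio with its own axis, with marker shapes for replicate numbers and black bars for the mean ± SD of 3 libraries. The groups are apart in each panel, and the ratio of LIM kinases to slingshots lies below 0 in the 3 grey libraries and above 0 in the 3 red ones.

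The other genes of actin turnover were taken as 7 lists with 89 genes, of which 85 were tested. Of these, 32 were called higher and 7 were called lower, with a median log2 fold change of 0.38. The 17.3% and 16.8% of all genes given above are the shares against which these counts stand, or 25.9% and 12.4% among protein-coding genes. These lists too were written with earlier results of these data known. *CTTN*, which encodes cortactin, and *CORO7* had at most 3 counts in each library and were not tested. *CORO7* shares 37.45% of its exon bases with a readthrough gene on its strand, so its low count need not mean low expression.

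Of 16 other kinases and GTPases of the pathway, 4 rose and 3 fell (median 0.35). The GTPases *RAC3* (log2 fold change 1.14), *RHOC* (0.88) and *RHOA* (0.83) rose, and *RHOA* shares 14.6% of its exon bases with another gene on its strand. The kinases *PAK3* (-0.80) and *CDC42BPA* (-0.73), of families known to activate LIM kinases, fell, while *PAK4* (0.83), of the same family as *PAK3*, rose. The kinase *ROCK2* (-0.59) fell too, just past the fold cutoff. *PAK4* and *ROCK2* were not followed singly through the other fits. The calls of *RHOC* (0.42), *PAK3* (-0.58) and *CDC42BPA* (-0.49) were lost after the GC and length correction, and those of *RHOC* (0.54) and *RHOA* (0.49) when scaled by library size alone. With the unassigned share as a covariate none of *RAC3* (0.53), *RHOC* (0.17), *RHOA* (0.24), *PAK3* (-0.56) and *CDC42BPA* (-0.42) was called.

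Of 4 other coronins tested, *CORO2B* (1.37) and *CORO1A* (1.02) rose and *CORO6* (-1.24) fell. *CORO6*, the most abundant of them per kilobase in the controls, went from 21.1 ± 2.72 to 8.93 ± 1.64 CPM (SD, n = 3 each). *CORO2B* rose from a low level, 1.31 ± 0.109 to 3.38 ± 0.635 CPM. *CORO1A* was not called with the covariate (0.56) or after correction for GC content and length (0.53).

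Of 11 cofilin partners and other depolymerizing factors tested, 7 rose and 0 fell (median 0.73). They included drebrin, *DBN1* (1.24), which binds filaments in competition with cofilin, twinfilin 2, *TWF2* (1.20), which binds monomers, and *CAP1* (0.73), which helps cofilin to recycle actin. Drebrin went from 247 ± 17.3 to 584 ± 125 CPM (SD, n = 3 each). The call of *CAP1* was lost with library size alone (0.39), with the covariate (0.16) and after correction for GC content and length (0.56), and that of *TWF2* with the covariate (0.51).

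Of the 10 genes of the ARP2/3 complex, 4 rose and 0 fell (median 0.48). *ARPC4* (1.37) and *ARPC1A* (1.00) rose, though 20.8% and 58.6% of their exon bases also belong to readthrough genes on the same strand. With the covariate *ARPC1A* (0.40) was not called. *ACTR2*, the most abundant per kilobase of annotated exon, had a log2 fold change of -0.05 and overlapping groups. Per kilobase of the canonical transcript *ARPC2* was the most abundant, and it rose (0.68), but it was not followed singly through the other fits.

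Of 12 WASP and WAVE factors, which switch on ARP2/3, 3 rose and 0 fell (median 0.06), and *CYFIP2* (0.96) and *BRK1* (0.62) rose. The call of *BRK1* was lost with library size alone (0.28), with the covariate, and without Ad CMV GFP replicate 1 (0.57) or Ad CMV 3xFlag-*Esrrg* replicate 3 (0.58) or 4 (0.47). Of 15 actins, monomer-binding and capping proteins, 8 rose and 2 fell (median 0.74). Gamma-actin, *ACTG1*, rose from 2327 ± 254 to 6712 ± 1640 CPM (SD, n = 3 each, log2 fold change 1.53), and profilin 1, *PFN1* (1.43), and thymosin beta 10, *TMSB10* (0.92), rose with it. *TMSB10* was not called with library size alone (0.58) or with the covariate (0.14). The pointed-end capping proteins *TMOD1* (-1.30) and *TMOD2* (-1.23) fell. *TMOD1* shares 45.3% of its exon bases with *TSTD2* on the opposite strand. Of 17 formins and tropomyosins, 4 rose and 1 fell (median 0.21). The formins *FHOD3* (1.15) and *FHOD1* (0.89) rose and *FMN1* (-0.90) fell, while *TPM4* (0.58, groups apart) was just under the fold cutoff. *FHOD1* was not called with library size alone (0.56), after the GC and length correction (0.47) or with the covariate (0.52).

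**Figure D4:**
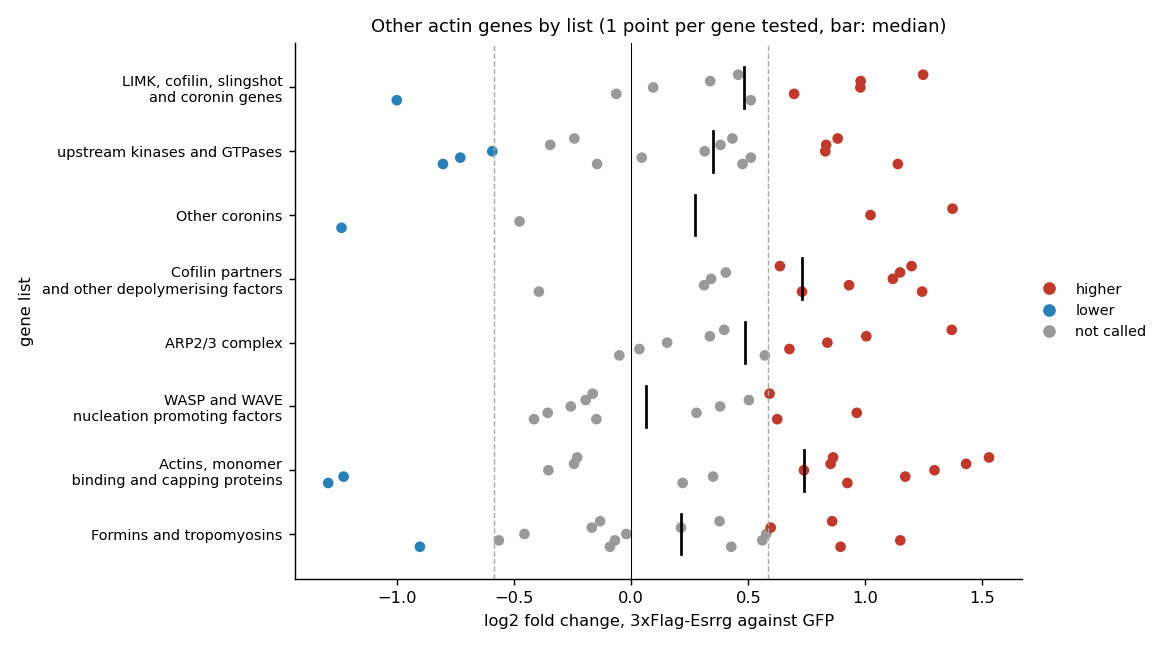
Log2 fold change of each tested gene of the 10 and of 7 lists of other actin genes, 1 point per gene, red for called higher, blue for called lower, grey for not called and a black bar for the median of the list. Medians range from 0.06 for the WASP and WAVE factors to 0.74 for actins, monomer-binding and capping proteins.

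When counts were scaled by library size alone, 14 of these 85 genes were higher and 15 were lower, and the median of all genes tested moved from -0.10 to -0.42. In that fit 9766 of all 24500 genes tested were called in either direction. With the unassigned share as a covariate, 8 of the actin genes were higher and 6 were lower, and 3182 of all 24500 genes tested were called in either direction.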

How the data were processed

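RNA from 6 SH-SY5Y samples was sequenced after removal of ribosomal RNA with directional libraries. The authors deposited raw counts per gene for 67060 genes. Per the submitters' processing notes, Trim Galore 0.6.7, STAR 2.7.9a, HTSeq 0.11.3 and the build GRCh38 were used. The annotation release and strand setting are not given in the sources used here. Identifiers were matched to GENCODE 44 (90.2% found, and the others held 0.153% of counts). Column names gave each sample's group and replicate.

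The counts were fitted with edgeR 4.0.16 in R 4.3.3 (filterByExpr, 24500 genes tested, TMM scaling, quasi-likelihood test, group as the only term). CPM values were computed with the TMM factors, and a prior count of 2 was used on the log scale. Members, lists and motifs were chosen with earlier results of these data known, and the GC box after the promoters had been seen. Beside the 10 members and *ESRRG*, the text names up to 2 called genes with the largest rise and fall and the most abundant gene per kilobase of annotated exon of each list, and the 3 genes most like *LIMK1*. *PAK4*, *ROCK2*, *ARPC2*, *CTTN*, *CORO7* and *COL3A1* were named after their values were seen. GC content and length were corrected with smooth curves (mgcv 1.9.3, values for 98.9% of genes). The other alternatives were DESeq2 1.42.0, RLE factors, library size alone, other filters and fold cutoffs, each library left out, the replicate number as a block and the share of reads assigned to no gene (unassigned share, logit) as a covariate. The fits were tested on simulated data. Canonical transcript length was an alternative chosen after seeing the data.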

Additional observations from a re-analysis of the deposited data

How the results depend on the processing

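Depth did not limit these genes, whose counts per library ran from 409 to 46376, but 3 libraries per group limit the tests. *LIMK1*, *CFL1* and *SSH2* kept their call in all 15 other fits. The number of genes of the 10 called higher was 4 to 6 when 1 library was left out, with 6 reached without Ad CMV 3xFlag-*Esrrg* replicate 2, which also brought the whole table to 10961 genes. It was 2 with the unassigned share as a covariate and 1 at a 2-fold cutoff. That covariate brought the whole table from 8351 to 3182 genes, a test against a 1.5-fold threshold to 3594 and a 2-fold cutoff to 3934. Library size alone brought it to 9766. Of the other actin genes, 14 were higher with library size alone, 8 with the covariate, 16 against the threshold and 14 at 2-fold, and 15 were lower with library size alone, 4 against the threshold, 16 with no fold cutoff and 3 at 2-fold. Signs turned for *CFL2* (-0.23 with library size alone, -0.17 with the covariate), *SSH1* (0.014 with DESeq2 and with RLE factors, 0.047 without Ad CMV 3xFlag-*Esrrg* replicate 2, and -0.073 to 0.047 over the libraries left out), *SSH3* (-0.15 after GC and length correction, -0.20 with the block too, -0.041 with the covariate), *DSTN* (-0.078 with the covariate) and *BRK1* (-0.050 with the covariate). *ACTR2* turned to 0.029 with DESeq2 and with RLE factors, 0.11 without Ad CMV 3xFlag-*Esrrg* replicate 2 (-0.099 to 0.11 over the libraries left out), 0.022 with the block, 0.21 after the correction and 0.34 with both. The ratio of *CORO1B* to *CORO1C* turned to -0.25 after the correction. The cause of these changes was not tested. The canonical transcript length left the ratio of LIM kinases to slingshots in the same direction.

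The groups share replicate numbers 3 and 4 only, and the labels do not say what a number marks. Deviations from the group means correlated at 0.08 for number 3 and at -1.0e-04 for number 4, so the samples were not treated as paired. With the replicate number as a block, the group effect rests on numbers 3 and 4 alone, since the other numbers occur in only 1 group. In that fit 5 of the 10 genes were higher (*LIMK2* in addition), 1 was lower, and 10435 genes of the whole table were called.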

Other observations

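The genes whose levels moved most like those of *LIMK1* over the 6 libraries were *TGFB1*, *TSPYL4* and *SFXN2*, out of 12057 protein-coding genes whose mean count was 50 or more. Likeness was the root mean square difference of log2 CPM after each gene was centred on its own mean, and it was 0.0206, 0.0222 and 0.0240 for these 3. *TGFB1*, a secreted growth factor, stood at 74.9, 82.3 and 79.3 CPM with Ad CMV GFP and at 129, 157 and 177 CPM with Ad CMV 3xFlag-*Esrrg*. *CORO1B* was the nearest of the other 9 actin regulators, at rank 846 with 0.107, and *SSH2* was the farthest, at rank 11589 with 1.00. *TGFB1* was not called after the GC and length correction (0.50), nor were *TSPYL4* (0.58) and *SFXN2* (0.58) with the unassigned share as a covariate. Nothing about shared control was read from this.

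Few counted reads fell on near-identical copies. Reads that aligned to several places were left out of the counts of genes, so these shares cannot show how far copies bore on *CFL1* or *DSTN*. Such reads made up 7.16% to 7.41% of all reads with Ad CMV GFP. In Ad CMV 3xFlag-*Esrrg* replicates 2, 3 and 4 they made up 9.33%, 12.7% and 13.0%. The 8 annotated *CFL1* pseudogenes summed to 0.142% to 1.08% of the *CFL1* count in each library, and the 5 *DSTN* pseudogenes summed to 2.72% to 5.09% of the *DSTN* count. *CFL1P3*, the *CFL1* copy with the most counts, held 59 to 125 reads per library and had a log2 fold change of -0.61 (adjusted p = 0.081, edgeR's quasi-likelihood test). *PTPRCAP*, whose exons overlap 17.0% of those of *CORO1B*, had 0 counts in each library. That overlap is on the same strand, so its count of 0 need not mean low expression. Reads that could belong to several genes were also left out of the counts of genes. They made up 4.55% to 4.87% of all reads with Ad CMV GFP. In Ad CMV 3xFlag-*Esrrg* replicates 2, 3 and 4 these shares were 5.69%, 9.84% and 9.79%.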
